A study of Mus musculus with 8 samples.

Results

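Mitochondrial fusion, fission and mitophagy were examined through 10 genes, taken by symbol from the deposited table of raw gene counts. They were the fusion GTPases Mfn1, Mfn2 and Opa1, the fission genes Dnm1l, Fis1 and Mff, the mitophagy kinase Pink1, and the mitophagy receptors Bnip3, Bnip3l and Fundc1. All 10 were among the 13387 genes of the table, and all 10 passed the filter on low counts. The study asked what happens to megakaryocytes (MKs), the marrow cells that shed platelets, when they share a culture with mesenchymal stromal cells (MSCs). Wild-type C57BL/6 MKs from murine bone marrow were cultured alone (4 libraries) or with wild-type C57BL/6 MSCs (4 libraries) for 18 hours. Each library pooled several wells. MKs had been enriched from marrow on CD41 beads and MSCs sorted as CD45-Ter119-CD31-CD51+CD140a+ cells, and every culture received thrombopoietin. MKs in suspension were separated from the adherent MSCs by hand. The labels describe MKs free of platelets, whereas in the paper the RNA is from platelets. The labels do not tie libraries to individual mice, although the paper counts its replicates as mice, and p-values measure the spread between these libraries.

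Mitochondria form a network that is remodeled all the time. MFN1 and MFN2 tether and fuse outer membranes, and OPA1 fuses inner membranes and shapes the cristae. DRP1, the product of Dnm1l, is recruited from the cytosol by adaptors such as MFF and constricts the organelle, while FIS1 sits on the outer membrane and takes part in fission. Damaged or surplus mitochondria are removed by mitophagy. PINK1 builds up on depolarized mitochondria and starts their ubiquitination by Parkin, whereas BNIP3, BNIP3L (also called NIX) and FUNDC1 are outer membrane receptors that bind LC3 family proteins directly. BNIP3L is best known for clearing mitochondria from maturing reticulocytes, and BNIP3 for its induction by low oxygen. In platelets, mitophagy is tied to mitochondrial quality and to the activation state.

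Library totals ran from 4939874 to 12523616 counts. Coculture replicate 3 stood apart, with the highest total, the fewest genes with a count (10735, against 12406 to 13193 in the others), and 1012 genes without a count although all other libraries had 10 or more, a pattern that the other libraries showed for 0 to 4 genes. For 8 of the 10 members it gave the lowest or the highest value of the cocultures, which any of 4 libraries often does by chance. The share of all genes for which this held was not counted. The tests of the members and lists are therefore given with and without this library. MK and platelet markers were present in every library, at a summed level of 1745 to 2171 CPM (counts scaled to the library total and TMM factor) in MKs cultured alone and 1656 to 2513 CPM in cocultures, led by Pf4. Without Pf4 their sum was lower in every coculture, at 837.9 to 1020 CPM against 1055 to 1203 CPM. Markers of other cells also moved with the groups. The 10 measured MSC markers summed to 5.43 to 13.02 CPM in MKs cultured alone and 1117 to 3905 CPM in cocultures, and the 10 macrophage markers to 152.1 to 227.6 and 907.7 to 1331 CPM. The 10 neutrophil markers summed to 79580 to 82630 CPM in MKs cultured alone and 4466 to 9779 CPM in cocultures, and the 7 B cell markers to 850.4 to 897.9 and 61.1 to 220.9 CPM. In MKs cultured alone Col6a1 was at 0 in every library, and the highest MSC marker, Sparc, reached 1.10 CPM at most. In coculture replicate 3, Lepr, Kitl and Postn, Fcgr1 and Cd163, Klf1 and Alas2, as well as Gp6 and Vpreb1, were among the markers at 0. The part of these other cells in the results below was not tested. In bulk RNA, fewer cells of a type and less RNA per cell cannot be told apart.

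Of the 10 genes, 1 was called lower in cocultures and 0 were called higher by edgeR's quasi-likelihood test, where a call required a fold change of 2 or more, an adjusted p no higher than 0.05 and, in either group, a mean of 1 CPM or more. Across all 11722 genes tested, 20.5% were called, 7.31% lower and 13.2% higher. The gene called was Bnip3l. At an unadjusted p under 0.05 there were 2 members, Bnip3l and Mff, neither of them higher in cocultures, and DESeq2 also called 0 members higher. At an adjusted p of at most 0.05 regardless of fold there was 1 member, against 23% of all genes. The groups did not overlap for 2 members, Bnip3l and Mff, against 40.3% of all genes. The members' median log2 fold change was 0.082, beside 0.034 over all genes tested, with 6 members above 0 and 4 below. The plot of levels by library shows all 10 genes.

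**Figure D1:**
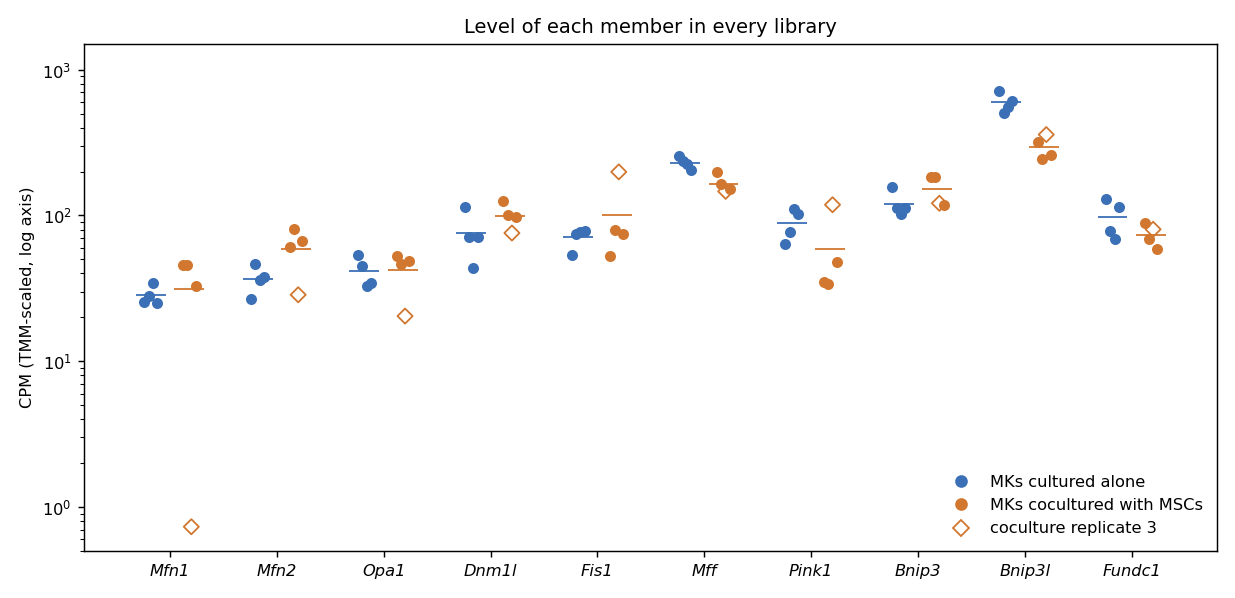
CPM of the 10 genes on a log axis in 4 libraries of MKs cultured alone (blue) and 4 of cocultures (orange, with replicate 3 as an open diamond), with horizontal lines at group means. Bnip3l and Mff separate the groups, and replicate 3 lies at 0.73 CPM for Mfn1 and 199.0 CPM for Fis1, away from the other cocultures.

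The mitophagy receptors included the member with the highest level, Bnip3l, which was also the 1 member called. Bnip3l (chr14:66985239-67008877, minus strand, mm10) had 715.5, 507.6, 551.9 and 611.5 CPM in MKs cultured alone and 319.6, 244.6, 358.7 and 257.9 CPM in cocultures. Every coculture thus lay below every library of MKs cultured alone, and replicate 3 was the highest of the cocultures. Bnip3l fell by 1.01 on the log2 scale (SE 0.20, adjusted p = 0.00666), which is a 2.02-fold decrease, close to the cutoff of 2. Without coculture replicate 3 it fell by 1.14 (SE 0.18, adjusted p = 6.4e-05). The call rests on the fold cutoff: leaving out replicate 1 of the MKs cultured alone, or replicate 2 or 4 of the cocultures, gave -0.93, -0.89 and -0.91, with adjusted p of 0.0211, 0.0298 and 0.0294. When libraries were scaled to the MK and platelet markers, Bnip3l was at -0.73 with an adjusted p of 0.0663 and was not called. All genes then had a median of 0.34. Relative to that median Bnip3l lay at -1.07, a value that largely takes the scaling back out and was not tested.

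Genes of red cell precursors, in which BNIP3L is best known, were at low levels in both groups. The 7 measured erythroid markers summed to 108.2 to 149.4 CPM in MKs cultured alone and 177.8 to 319.2 CPM in cocultures. Most of this was the transferrin receptor Tfrc, which other dividing cells express too. The other 6 markers summed to 23.5 to 31.7 CPM in MKs cultured alone, to 7.03 to 10.4 CPM in coculture replicates 1, 2 and 4, and to 55.5 CPM in coculture replicate 3. The mean log2(CPM + 1) of the 7 markers was lower in every coculture, at 1.99 to 2.08 against 2.52 to 2.96. With all libraries, 4 erythroid markers were tested, of which Tfrc was called higher (log2 fold change 1.23, adjusted p = 0.0209) and 0 lower. The globin gene Hbb-bs (0.61, adjusted p = 0.733) and the erythroid transcription factor Klf1 (-2.30, adjusted p = 0.114) were not called. Without coculture replicate 3, 3 of 5 tested were called lower, among them Hbb-bs (-1.999) and Klf1 (-1.93), and Tfrc was called higher (1.425). Sums of neutrophil markers, B cell markers, erythroid markers without Tfrc, and MK and platelet markers without Pf4 moved in the same direction as Bnip3l. The exception was coculture replicate 3, where the erythroid sum was high. With Pf4 the MK and platelet sums overlapped between groups, and single markers of that list went either way. Of its 14 markers 0 were called, with a median log2 fold change of -0.30. The part of these cells in the change was not tested.

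Bnip3 (chr7:138890836-138909519, minus strand), the paralog of Bnip3l, was not called in either direction. It had 155.8, 111.9, 101.8 and 112.6 CPM in MKs cultured alone and 183.9, 182.5, 121.2 and 117.8 CPM in cocultures. Replicates 1 and 2 of the cocultures lay above all MKs cultured alone, and replicates 3 and 4 lay within their range. The log2 fold change of 0.33 (SE 0.24, adjusted p = 0.352) did not pass the test, nor did 0.41 (SE 0.20, adjusted p = 0.0971) without coculture replicate 3.

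Because a ratio within a library does not depend on how libraries are scaled, Bnip3 was set against Bnip3l as counts per kilobase of exon. The ratio was 0.371, 0.376, 0.314 and 0.314 in MKs cultured alone, and 0.980, 1.27, 0.576 and 0.778 in cocultures. Every coculture had more Bnip3 relative to Bnip3l than every library of MKs cultured alone, with replicate 3 nearest to them. On the log2 scale the means were -1.55 ± 0.14 (SD, n = 4) and -0.21 ± 0.49 (SD, n = 4), a difference of 1.34. A two-sided test by exact permutation gave p = 0.0286, which no arrangement of 4 against 4 libraries can undercut, and 0.0571 after adjustment over the 2 ratios tested, so the adjusted value does not pass 0.05. Without coculture replicate 3 the difference was 1.53, where the smallest exact permutation p is 0.0571.

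**Figure D2:**
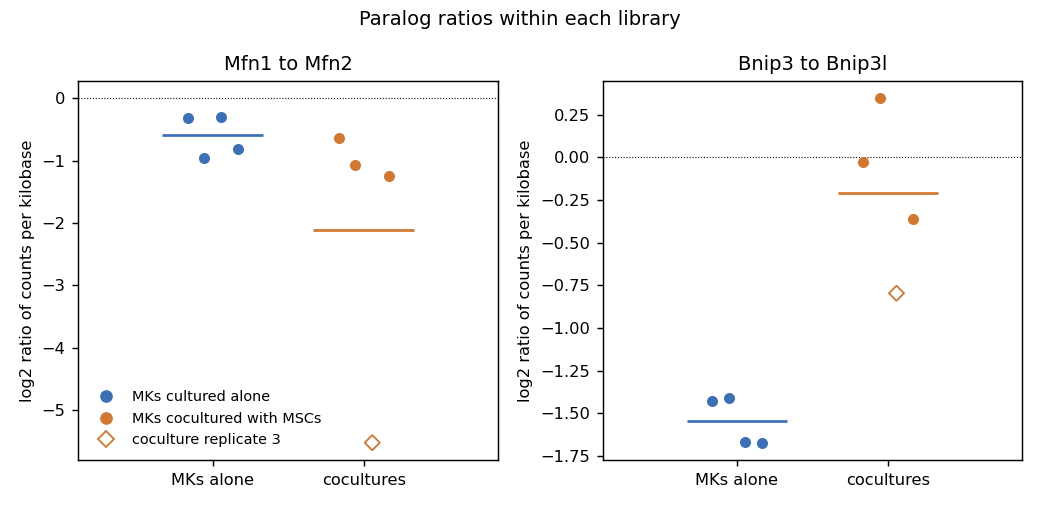
Log2 ratio of counts per kilobase in each library for Mfn1 to Mfn2 (left) and Bnip3 to Bnip3l (right), with MKs cultured alone in blue, cocultures in orange, coculture replicate 3 as an open diamond and group means as lines. The Bnip3 to Bnip3l values of -1.67 to -1.41 in MKs cultured alone lie below the -0.80 to 0.35 of the cocultures, while for Mfn1 to Mfn2 only coculture replicate 1 lies within the range of MKs cultured alone and replicate 3 lies at -5.52.

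The promoter of Bnip3 is shown because it is a well-known target of hypoxia-inducible factors, whose core letters include ACGTG. Only ACGTG was searched for, so other forms of the core are not marked. RefSeq promoter windows on GRCm38.p6 (250 bases before to 50 after the start, 300 bases in all) were found for 9 of the 10 members, all but Bnip3l. The stretch from 150 to 51 bases before the start of Bnip3 (chr7:138909557-138909656, minus strand) is given below, 5′ to 3′, with capitals marking the letters that match on either strand.

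Bnip3: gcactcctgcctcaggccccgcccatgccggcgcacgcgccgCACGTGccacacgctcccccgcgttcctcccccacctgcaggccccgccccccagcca

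The capitals begin 108 bases before the start and hold 2 overlapping matches, 1 on each strand. Matches to ACGTG on either strand were present in 19.6% of all 32851 promoter windows, and among the members in windows of Bnip3 and Mfn2 only, 3 of 14 windows. The Mfn2 windows with a match overlap and hold the same one. A match is a description of the letters and no measure of binding.

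Fundc1 (chrX:17556564-17572325, minus strand), the receptor that hypoxia regulates mainly through phosphorylation, had 129.3, 77.7, 68.4 and 113.4 CPM in MKs cultured alone and 88.3, 68.5, 80.4 and 58.5 CPM in cocultures. The groups overlapped. Its log2 fold change was -0.39 (SE 0.26, adjusted p = 0.321), and -0.45 (SE 0.23, adjusted p = 0.107) without coculture replicate 3.

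Pink1 (chr4:138313409-138326307, minus strand), the kinase that marks damaged mitochondria, depended on 1 library. It had 63.8, 76.9, 110.8 and 101.7 CPM in MKs cultured alone, and 35.2, 34.0, 118.4 and 48.0 CPM in cocultures. Replicates 1, 2 and 4 of the cocultures lay below every library of MKs cultured alone, and replicate 3 lay above every other library. With all libraries the log2 fold change was -0.58 (SE 0.43, adjusted p = 0.370). Without coculture replicate 3, Pink1 fell by 1.20 (SE 0.22, adjusted p = 0.000214), a 2.30-fold decrease that was called.

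Mfn2 and Mfn1 fuse outer membranes. Mfn2 (chr4:147873599-147904704, minus strand) had 26.7, 46.4, 35.8 and 37.6 CPM in MKs cultured alone and 60.3, 81.0, 28.6 and 66.4 CPM in cocultures. All cocultures but replicate 3 exceeded every library of MKs cultured alone. The log2 fold change was 0.69 (SE 0.35, adjusted p = 0.196). Without coculture replicate 3 Mfn2 rose by 0.89 (SE 0.20, adjusted p = 0.00144), a 1.86-fold difference that is under the fold cutoff.

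Mfn1 (chr3:32529465-32579239, plus strand) had 25.4, 28.2, 34.4 and 25.2 CPM in MKs cultured alone and 45.9, 45.5, 0.73 and 32.8 CPM in cocultures. Coculture replicate 3 held 7 counts of Mfn1, while the other libraries held 115 to 484. With this library the log2 fold change of 0.14 had an SE of 0.85 (adjusted p = 0.927), the widest error of the 10 genes. Without it Mfn1 rose by 0.53 (SE 0.20, adjusted p = 0.0374), and the groups still overlapped.

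The paralogs were also set against each other. The Mfn1 to Mfn2 ratio, in counts per kilobase, was 0.807, 0.517, 0.815 and 0.570 in MKs cultured alone and 0.647, 0.477, 0.0218 and 0.419 in cocultures. Coculture replicate 1 lay within the range of MKs cultured alone and the other cocultures lay below it, replicate 3 by far the most, so the groups overlapped with and without that library. The log2 ratios were lower in cocultures by a difference of -1.53 (p = 0.114 by exact permutation, two-sided, and 0.114 after adjustment over the 2 ratios), and of -0.39 without coculture replicate 3 (exact permutation p = 0.229). Neither passed the test.

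Opa1 (chr16:29579334-29654884, plus strand), the inner membrane GTPase, had 53.6, 45.0, 32.7 and 34.3 CPM in MKs cultured alone and 52.8, 46.5, 20.4 and 48.7 CPM in cocultures. The groups overlapped, and replicate 3 of the cocultures was the lowest library. The log2 fold change was 0.024 (SE 0.35, adjusted p = 0.970), and 0.24 (SE 0.20, adjusted p = 0.335) without that library. The sign of Opa1 turned under several settings.

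Among the fission genes, Mff was the member with the smallest spread. Mff (chr1:82724890-82752394, plus strand) had 253.8, 235.0, 225.3 and 204.7 CPM in MKs cultured alone and 198.7, 164.4, 146.3 and 152.6 CPM in cocultures. All cocultures lay below all MKs cultured alone, by a small margin in replicate 1. Its coefficient of variation was 8.91% in MKs cultured alone and 14.1% in cocultures. The log2 fold change of -0.47 (SE 0.17) missed the adjusted threshold by edgeR (adjusted p = 0.0817) and passed it by DESeq2 (adjusted p = 0.0113). With coculture replicate 3 left out Mff fell by 0.44 (SE 0.17, adjusted p = 0.0360), a 1.35-fold decrease. The decrease was smaller by edgeR with gene length correction (-0.30, adjusted p = 0.207). It was smaller still with libraries scaled to the MK and platelet markers (-0.16, adjusted p = 0.677).

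Dnm1l (chr16:16312230-16358959, minus strand), the GTPase that MFF recruits, had 114.5, 71.4, 43.8 and 71.1 CPM in MKs cultured alone and 125.4, 100.4, 75.8 and 97.0 CPM in cocultures. The groups overlapped through replicate 1 of the MKs cultured alone. Its log2 fold change was 0.41 (SE 0.31, adjusted p = 0.379), and 0.51 (SE 0.25, adjusted p = 0.0929) without coculture replicate 3. Neither value passed the test.

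Fis1 (chr5:136953275-136966234, plus strand) had 53.4, 74.5, 76.4 and 78.6 CPM in MKs cultured alone and 52.4, 79.6, 199.0 and 74.8 CPM in cocultures. Replicate 3 of the cocultures lay far above the other 7 libraries, which shared a range. With it the log2 fold change was 0.52 (SE 0.40, adjusted p = 0.394), and without it -0.063 (SE 0.20, adjusted p = 0.805).

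**Figure D3:**
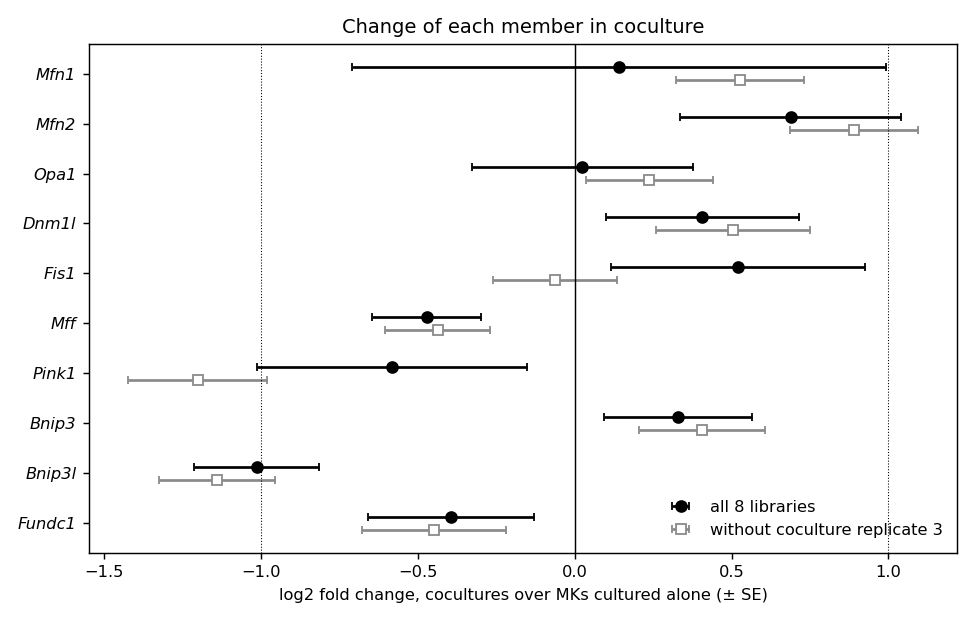
Log2 fold change of each gene in cocultures over MKs cultured alone with its SE, from all 8 libraries (filled circles) and without coculture replicate 3 (open squares), with dotted lines at a fold of 2. Mff moves from -0.47 to -0.44 and Bnip3l from -1.01 to -1.14 between the fits, whereas Pink1 goes from -0.58 to -1.20 and Fis1 from 0.52 to -0.063.

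With coculture replicate 3 left out, 5 of the 10 genes passed an adjusted p of 0.05 (Bnip3l, Pink1 and Mff lower, Mfn1 and Mfn2 higher) and 2 were called (Bnip3l and Pink1). In the same fit 55.1% of all 12267 genes tested passed the adjusted p and 36% were called, so these shares lie near or under those of all genes. The groups did not overlap for 4 members, which were Bnip3l, Pink1, Mff and Mfn2, against 56.1% of all genes. The members' median log2 fold change was 0.088, beside 0.030 over all genes.

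Levels were compared between genes as CPM per kilobase of exon in GENCODE vM21, which depends on the isoforms that MKs use. In MKs cultured alone Bnip3l stood first, at 154.6 ± 23.3 CPM per kilobase (SD, n = 4). Bnip3 followed at 53.2 ± 10.6, then Fundc1 at 41.3 ± 12.3, Fis1 at 41.3 ± 6.81, Pink1 at 33.0 ± 8.13 and Mff at 23.5 ± 2.10. Each gene from Bnip3 to Mff lay within 1 SD of its neighbour in this order when both spreads are counted. Dnm1l had 14.5 ± 5.62, and the fusion genes were lowest, with 7.05 ± 1.55 for Mfn2, 5.26 ± 1.25 for Opa1 and 4.63 ± 0.70 for Mfn1.

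In cocultures Bnip3l at 76.5 ± 13.9 CPM per kilobase (SD, n = 4) and Bnip3 at 66.8 ± 16.3 lay within each other's spread. Fis1 (59.2 ± 38.6), Fundc1 (31.4 ± 5.58), Pink1 (22.0 ± 15.0), Dnm1l (19.2 ± 3.91) and Mff (17.0 ± 2.39) followed, and no neighbours in this order were separated by more than their SDs. Mfn2, Opa1 and Mfn1 remained the 3 lowest genes, at 11.4 ± 4.26, 5.35 ± 1.87 and 5.11 ± 3.47. When replicate 3 of the cocultures was left out, Bnip3 had 71.3 ± 16.7 CPM per kilobase (SD, n = 3) and Bnip3l 71.0 ± 10.4, apart from Fis1 at 40.2 ± 8.46. Pink1 then had 14.6 ± 2.92 and stood below Dnm1l (20.7 ± 2.98) and Mff (17.6 ± 2.45), with a spread that overlapped that of Mff. As a share of the summed per-kilobase level of the 10 genes, Bnip3l made up 38.3% to 43.3% in MKs cultured alone and 21.3% to 26.3% in cocultures. The share of Mfn2 was 1.20% to 2.60% in MKs cultured alone, 3.68% to 5.25% in coculture replicates 1, 2 and 4, and 1.45% in coculture replicate 3. Shares of Mfn1, Opa1, Dnm1l and Bnip3 in coculture replicates 1, 2 and 4 likewise exceeded those in all MKs cultured alone. Because shares are parts of a whole, a lower share of Bnip3l by itself raises the others.

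Further genes of these pathways were taken from 7 lists of 119 genes, of which 117 were tested. Of these, 20 were called higher and 4 lower, which is 20.5% of the genes tested and equal to the 20.5% called over all genes. With coculture replicate 3 left out, 24 of 118 were called, 18 higher and 6 lower, which is 20.3% beside 36% of all genes. The plot of the lists shows the values of each list. Counts of single lists below from all libraries are to be read beside the 13.2% of all genes called higher and 7.31% called lower. Those without coculture replicate 3 are to be read beside the 36% of all genes called in that fit, in both directions together.

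Among 13 tested fission regulators, 1 was called higher, the actin nucleator Spire1, which had 1.24 to 3.33 CPM in MKs cultured alone and 10.7 to 22.9 CPM in cocultures (log2 fold change 2.95, SE 0.54, adjusted p = 0.00482). When replicate 3 of the cocultures was left out its value was 3.15, and 3 of 14 were called higher, the others being Inf2 and Senp5. The list's median was 0.67, and 0.53 without that library. Of 16 genes of OPA1 processing and cristae, 5 were called higher and 0 lower, with a median of 0.84. At adjusted p alone 7 were higher, where 23% of all genes passed in either direction. With coculture replicate 3 left out, 4 were called higher and the median was 0.60. The prohibitins, scaffold proteins of the inner membrane, were among the 5 called with all libraries. Phb went from 23.8 to 34.7 CPM in MKs cultured alone to 83.9 to 275.5 CPM in cocultures (log2 fold change 2.16, adjusted p = 0.00612), and Phb2 from 33.5 to 62.2 CPM to 75.5 to 327.1 CPM (1.59, adjusted p = 0.0401). In both, the highest value was that of coculture replicate 3, and without it Phb rose by 1.57 and Phb2 by 0.89, under the fold cutoff. Apoo, a subunit of the cristae junction complex MICOS, had 40.03 to 65.3 CPM and 108.9 to 134.1 CPM (log2 fold change 1.24, adjusted p = 0.00413), and did not rest on that library, with 1.18 without it.

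Of 13 tested genes of the PINK1-Parkin pathway, 1 was called higher and 1 lower, both cargo adaptors that link ubiquitinated mitochondria to LC3. Sqstm1, which encodes p62, had 516.9 to 615.2 CPM in MKs cultured alone and 823.3 to 3013 CPM in cocultures (log2 fold change 1.73, SE 0.36, adjusted p = 0.00950). Tax1bp1 had 629.7 to 874.4 CPM in MKs cultured alone and 167.4 to 388.6 CPM in cocultures, and fell by 1.31 (SE 0.27, adjusted p = 0.00819). For both, the value farthest from MKs cultured alone was that of coculture replicate 3, and without it the changes were 1.40 and -1.13, both still called.

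Of 10 other mitophagy receptors and their regulators, 2 were called higher. Fkbp8, an outer membrane receptor, had 35.1 to 78.9 CPM in MKs cultured alone and 87.6 to 154.0 CPM in cocultures (log2 fold change 1.01, adjusted p = 0.0440). Bcl2l1, which encodes BCL-XL and restrains FUNDC1, had 42.2 to 54.2 CPM and 88.1 to 246.4 CPM (1.497, adjusted p = 0.0127). When replicate 3 of the cocultures was left out the values were 0.93, no longer called, and 1.06. Among 32 core autophagy genes, 1 was called higher and 1 lower, with a median of -0.0066. With coculture replicate 3 left out these counts were again 1 and 1, with a median of -0.14. Map1lc3a, an LC3 gene, had 13.9 to 28.3 CPM and 47.4 to 69.7 CPM (log2 fold change 1.45, adjusted p = 0.00864, and 1.43 without replicate 3). Atg3, the enzyme that joins LC3 to lipid, had 403.9 to 476.1 CPM and 153.3 to 256.5 CPM and fell by 1.03 (adjusted p = 0.00573), with -0.92 without replicate 3.

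Of 14 genes of mitochondrial import and housekeeping, 5 were called higher and 0 lower, with a median of 0.72. When replicate 3 of the cocultures was left out, 3 were called higher and the median was 0.51. The chaperone Hspd1 had 186.3 to 215.2 CPM in MKs cultured alone and 405.9 to 451.7 CPM in cocultures (log2 fold change 1.09, SE 0.15, adjusted p = 0.00104), and kept 1.07 without coculture replicate 3. Hspa9 had 222.1 to 326.6 CPM and 509.6 to 1064 CPM (1.30, adjusted p = 0.00742), and 1.03 without replicate 3. The import receptor Tomm20 had 107.8 to 185.6 CPM and 182.1 to 462.5 CPM, with overlapping groups (1.07, adjusted p = 0.0393), and 0.74 without replicate 3.

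Of 19 hypoxia-induced genes, which are listed because Bnip3 belongs to that response, 5 were called higher and 2 lower, with a median of 0.83. With coculture replicate 3 left out, 5 were called higher and 4 lower, with a median of 0.64. Ldha had 960.3 to 1249 CPM in MKs cultured alone and 1798 to 2657 CPM in cocultures (log2 fold change 1.04, adjusted p = 0.00529), and 0.97 without replicate 3, under the fold cutoff. Vegfa had 17.2 to 24.1 CPM and 49.95 to 66.4 CPM (1.497, adjusted p = 0.00418), and 1.51 without replicate 3. Higd1a had 50.8 to 77.1 CPM and 90.2 to 325.8 CPM (1.38, adjusted p = 0.0402), where the highest value was that of coculture replicate 3, and without it 0.79, no longer called. In the other direction Mxi1 fell by 1.70 (adjusted p = 0.00139), from 106.8 to 134.0 CPM down to 25.1 to 49.0 CPM, and Kdm3a fell by 1.29 (adjusted p = 0.0194). Without replicate 3 they fell by 1.87 and 1.10. The 2 largest values of the list, 6.99 for P4ha2 and 5.16 for Adm, were named after they were seen and came from levels of at most 1.55 CPM in MKs cultured alone, with 7.41 and 5.50 without replicate 3. The sums of MSC and macrophage markers, given above, moved in the same direction as the rises in these lists, and their part was not tested.

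**Figure D4:**
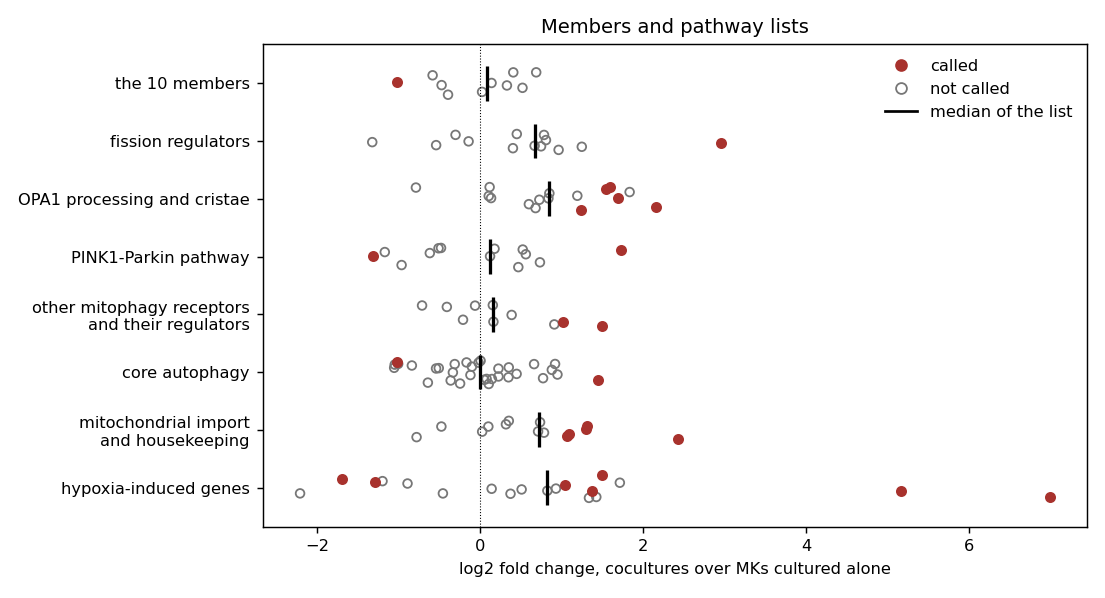
Log2 fold change in cocultures over MKs cultured alone for each tested gene of the 10 members and of 7 pathway lists, with called genes filled, other genes open and list medians as vertical bars. The medians run from -0.0066 for core autophagy to 0.84 for OPA1 processing and cristae, with 0.082 for the members, and Bnip3l is the only filled point among the members.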

How the data were processed

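RNA-Seq was performed on 8 bulk libraries, 4 per group. The authors deposited raw counts per gene, as whole numbers without normalization. Their methods and processing notes name SMART-Seq HT paired-end libraries, fastp and kallisto on mm10. Versions, summing over transcripts and use of strand are not given in the sources used here, so antisense and overlapping genes are uncertain.

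Groups and replicate numbers came from the labels. Counts were tested in R 4.3.3 by the quasi-likelihood F test of edgeR 4.0.16 with robust dispersions, after filterByExpr and TMM scaling, with Benjamini-Hochberg adjustment over 11722 genes and no covariate, because the batches of the authors' DESeq2 design are not named. SEs are the log2 fold change divided by the square root of F. The cutoffs were those of the methods, with CPM in place of TPM. Exon lengths came from GENCODE vM21 (GRCm38, the build of mm10). Totals of 4939874 to 12523616 counts make 3 counts equal to 0.24 to 0.61 CPM, which covers counting error only. Permutation tests used scipy 1.17.1. Fits were also run on counts simulated with means and spread of the MKs cultured alone. These held no library like coculture replicate 3, so they do not show how the fits behave with it.

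Alternatives were DESeq2 1.42.0, RLE factors, library size only, scaling to MK and platelet markers, 2 other filters, the replicate number as a block, gene length correction, both together, and each library left out. The members and lists were chosen with earlier results of these data known. Named were the 10 members and, per list, the up to 3 called genes with the highest mean CPM in each direction. P4ha2 and Adm fall outside this rule. The value of 1 marker gene is not reported here.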

Additional observations from a re-analysis of the deposited data

Results flagged for a closer look

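In each group of 4 libraries, each member, both ratios and the marker scores (mean log2(CPM + 1) of a list) were searched for a value set apart from the remaining 3. This was so in 6 of 36 groups, where chance flags about 1 in 20 groups, or 1.8 here, and 5 of the 6 were coculture replicate 3. The groups are not independent, since libraries recur and the counts of Mfn1 also enter the Mfn1 to Mfn2 ratio. The 6 are therefore not separate observations. In that library log2(CPM + 1) was 0.79 for Mfn1 and 4.42 for Opa1, the log2 ratio of Mfn1 to Mfn2 was -5.52, and the score was 3.45 for MSC markers and 2.36 for B cell markers. In MKs cultured alone, log2(CPM + 1) of Fis1 was 5.77 in replicate 1, below the other 3. Why these values stood apart was not tested.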

How the results depend on the processing

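The number of members called, 1, became 0 with libraries scaled to the MK markers, 2 with the replicate block without the pair numbered 3 (an alternative chosen after seeing the data), and, leaving out single libraries, 0 to 2. The number past an adjusted p of 0.05, also 1, was 2 with DESeq2, 0 when scaled to the markers, 7 with the replicate block without the pair numbered 3, and 1 to 5 upon leaving out single libraries. The pathway genes called, 24, were 37 when scaled to the markers, 15 with replicate block plus gene length correction, and 12 to 24 upon leaving out single libraries, the 12 being without replicate 1 of the MKs cultured alone. The labels do not say whether replicate numbers pair the libraries. Deviations of same-numbered libraries correlated at 0.020 to 0.37, and those of differently numbered libraries at -0.28 to 0.099. With the replicate block alone Bnip3l was at -1.02 and still called.

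The sign turned for Mfn1 with the replicate block (-0.30), also when length was corrected (-0.19), and without coculture replicates 1 (-0.10) or 2 (-0.068), and ran up to 0.53 with single libraries left out and 0.62 over all alternatives. It turned for Opa1 with DESeq2 (-0.0023), RLE factors (-0.0029), at least 10 counts in every library (-0.049), the replicate block (-0.037), and without replicates 3 (-0.096) or 4 (-0.077) of the MKs cultured alone or 1 (-0.099) or 4 (-0.013) of the cocultures, up to 0.24 with single libraries left out and 0.32 over all alternatives. It turned for Fis1 without coculture replicate 3 (-0.063, against up to 0.74 without other single libraries and 0.81 over all alternatives) and with the replicate block without the pair numbered 3 (-0.023). The cause was not tested, and none of the turned values passed the test. With at least 10 counts required in every library, Mfn1 had no value. In single members 159 other values kept their direction and whether the gene was called, though some crossed an adjusted p of 0.05, 4 of Bnip3l lost the call and 2 of Pink1 gained it. The difference of the Bnip3 to Bnip3l ratio was 1.34 with the replicate block, where the smallest sign-flip p is 0.125, and 1.15 to 1.53 with a library left out, where no p under 0.0571 is possible. That of Mfn1 to Mfn2 ran from -2.02 to -0.39.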
